A study of Saccharomyces cerevisiae with 12 samples.

Results

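The genes described here are 40 nuclear genes of the mitochondrial respiratory chain and the ATP synthase of budding yeast, among 6612 features in the RNA-seq tables. They were chosen by name and complex and not by any measured value, but earlier results of these data were known when they were chosen. There were 9 genes of the cytochrome bc1 complex (complex III), 9 of cytochrome c oxidase (complex IV) and 2 of cytochrome c. The others were 13 of the ATP synthase, 4 of succinate dehydrogenase (complex II), and the dehydrogenase genes NDI1, NDE1 and CYB2. CYB2, which encodes the L-lactate cytochrome c oxidoreductase, stands on the list although it belongs to none of the complexes named. RNA-seq was made from the wild-type strain BY4741 (WT) and from the dus1Δ dus2Δ dus3Δ dus4Δ strain (DUS KO), with 3 libraries of each. The study made these libraries to look at splicing without the dihydrouridine synthases, and here they are read for mRNA levels. These enzymes reduce uridine to dihydrouridine (D) in RNA. DUS KO was obtained by mating strains that each lacked a pair of the DUS genes and dissecting the tetrads, so it is a segregant of a cross and not a direct derivative of the WT culture. The labels say that both strains were harvested in mid-log phase, whereas the methods take yeast RNA from a dense culture, so the growth stage, which bears on respiratory genes, is uncertain. The medium and carbon source are not given in the sources used here.

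The respiratory chain passes electrons from NADH, succinate and lactate through ubiquinone, the bc1 complex and cytochrome c to cytochrome c oxidase, and the ATP synthase uses the resulting proton gradient to make ATP. Budding yeast has no proton-pumping complex I and uses single-polypeptide NADH dehydrogenases instead. Most subunits are encoded in the nucleus and imported, a few are encoded in mitochondrial DNA, and on glucose the nuclear genes are kept low and are raised on respiratory carbon sources by Hap2/3/4/5, an activator that binds CCAAT sequences.

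Because the genes are thought of as one regulated group, their promoters were read first. The letters ACCAATNA, a consensus of the Hap2/3/4/5 site, were searched on both strands of the 500 bases before each start codon taken from RefSeq's annotation of the R64 assembly, also called sacCer3. They were present in 19 of the 40 promoters, 47.5%, against 8.63% of all 5896 promoters with a window of that length. The count was 3 of 9 for the bc1 complex, 5 of 9 for cytochrome c oxidase, 7 of 13 for the ATP synthase, 1 of 4 for succinate dehydrogenase, 3 of 3 for the NADH and lactate dehydrogenases and 0 of 2 for cytochrome c. Of the 20 matches, 18 lay on the strand of the gene and 13 began 150 to 250 bases before the start codon, with a median of 197 and a range of 10 to 351. The letters TATAAA, searched in the same way, were in 57.5% of the 40 promoters and 59.9% of all promoters, and no TATAAA match overlapped an ACCAATNA match. Stretches of 40 bases from 8 promoters are shown, at least 1 from each group with a match, with the match in capitals and the strand of the gene, to let the sites be compared.
COX8 (chrXII:910144-910183, minus strand): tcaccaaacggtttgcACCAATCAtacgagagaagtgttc
COX13 (chrVII:144579-144618, plus strand): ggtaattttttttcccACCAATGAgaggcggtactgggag
COR1 (chrII:135844-135883, minus strand): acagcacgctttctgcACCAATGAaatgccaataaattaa
QCR7 (chrIV:1496707-1496746, minus strand): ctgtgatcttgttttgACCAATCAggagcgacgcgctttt
ATP3 (chrII:315363-315402, plus strand): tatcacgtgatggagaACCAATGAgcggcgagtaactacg
ATP17 (chrIV:1228365-1228404, plus strand): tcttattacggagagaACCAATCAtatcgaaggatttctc
SDH1 (chrXI:171424-171463, minus strand): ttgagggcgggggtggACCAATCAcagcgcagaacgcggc
NDI1 (chrXIII:30012-30051, minus strand): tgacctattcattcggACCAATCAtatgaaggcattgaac
A match of letters is a description and does not show that the activator binds there. Only these exact letters were searched, so a promoter without a match is not shown to lack a site.

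Totals of estimated counts were 4336794 to 5652837 in WT and 656162 to 5500084 in DUS KO, and DUS KO replicate 3 was the shallowest library. The 40 genes took 0.261% to 0.359% of the counts in WT and 0.324% to 0.361% in DUS KO, and their median count was 194 to 346.5 in WT, 430 and 182.5 in DUS KO replicates 1 and 2, and 45 in DUS KO replicate 3. DUS1 and DUS4 had 0 counts in all DUS KO libraries, and DUS2 had 3 counts in 1 of them. DUS3 kept 64.1, 52.2 and 6.49 estimated counts in DUS KO, against 129, 82 and 112 in WT. Its log2 fold change, DUS KO over WT, was -0.92 and did not pass the test (edgeR adjusted p = 0.577). The DUS3 counts in DUS KO were not whole, so some of these reads were divided with another feature. The genes of MATa cells MFA1, MFA2, STE2 and BAR1 had log2 fold changes of 0.68 to 1.62, DUS KO over WT. All 4 had an edgeR p under 0.05 with no adjustment, where 3.33% of all features did in that direction. None passed the test (lowest edgeR adjusted p, 0.136). Of 3 genes of MATalpha cells 1 was tested, MF(ALPHA)2, with a log2 fold change of -1.24 (edgeR adjusted p = 0.686). Nothing in the sources says that replicates came from separate cultures, so p-values measure the spread between these libraries only.

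Levels are given as the deposited TPM, which is scaled by length and so allows genes to be set beside each other. Of the 40 genes, 39 passed the filter on low counts, and the median of their mean TPM over the 6 libraries was 56.3, against 4.78 over all 5884 features that passed it. By that level 36 of the 39 lay above the median of all features and 17 in the top 10 percent. Transcript levels within a complex were far from equal. In the bc1 complex QCR8, which encodes a small subunit near the quinone-binding site, had the highest mean at 239 TPM, and RIP1, which encodes the Rieske iron-sulfur protein, the lowest at 7.50 TPM.

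Cytochrome c oxidase spanned a narrower range, from COX9 (subunit VIIa) at 312 TPM, the highest of the 40 genes, to COX5A (subunit Va) at 44.7 TPM. In the ATP synthase the highest was ATP17, subunit f of the membrane part, at 185 TPM and the lowest ATP3, the gamma subunit of the central stalk, at 10.7 TPM. The catalytic beta subunit gene ATP2 stood at 27.8 TPM and the alpha subunit gene ATP1 at 22.9 TPM, so the subunits present in several copies per enzyme were not those with the highest mRNA level. Succinate dehydrogenase ran from SDH3, the cytochrome b subunit, at 59.6 TPM to SDH1, the flavoprotein, at 4.51 TPM. NDE1, the NADH dehydrogenase that faces the intermembrane space, had 11.5 TPM, NDI1, which faces the matrix, 2.46 TPM, and CYB2 0.935 TPM, the lowest of the 40. The authors' effective length is the length less 59 nt for all 40 genes, so that the length was 1.49 times the effective length for the 180-nt features COX9 and ATP18 and 1.03 times for the 1923-nt SDH1. TPM therefore ranks short genes higher than counts per full length would.

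**Figure D1:**
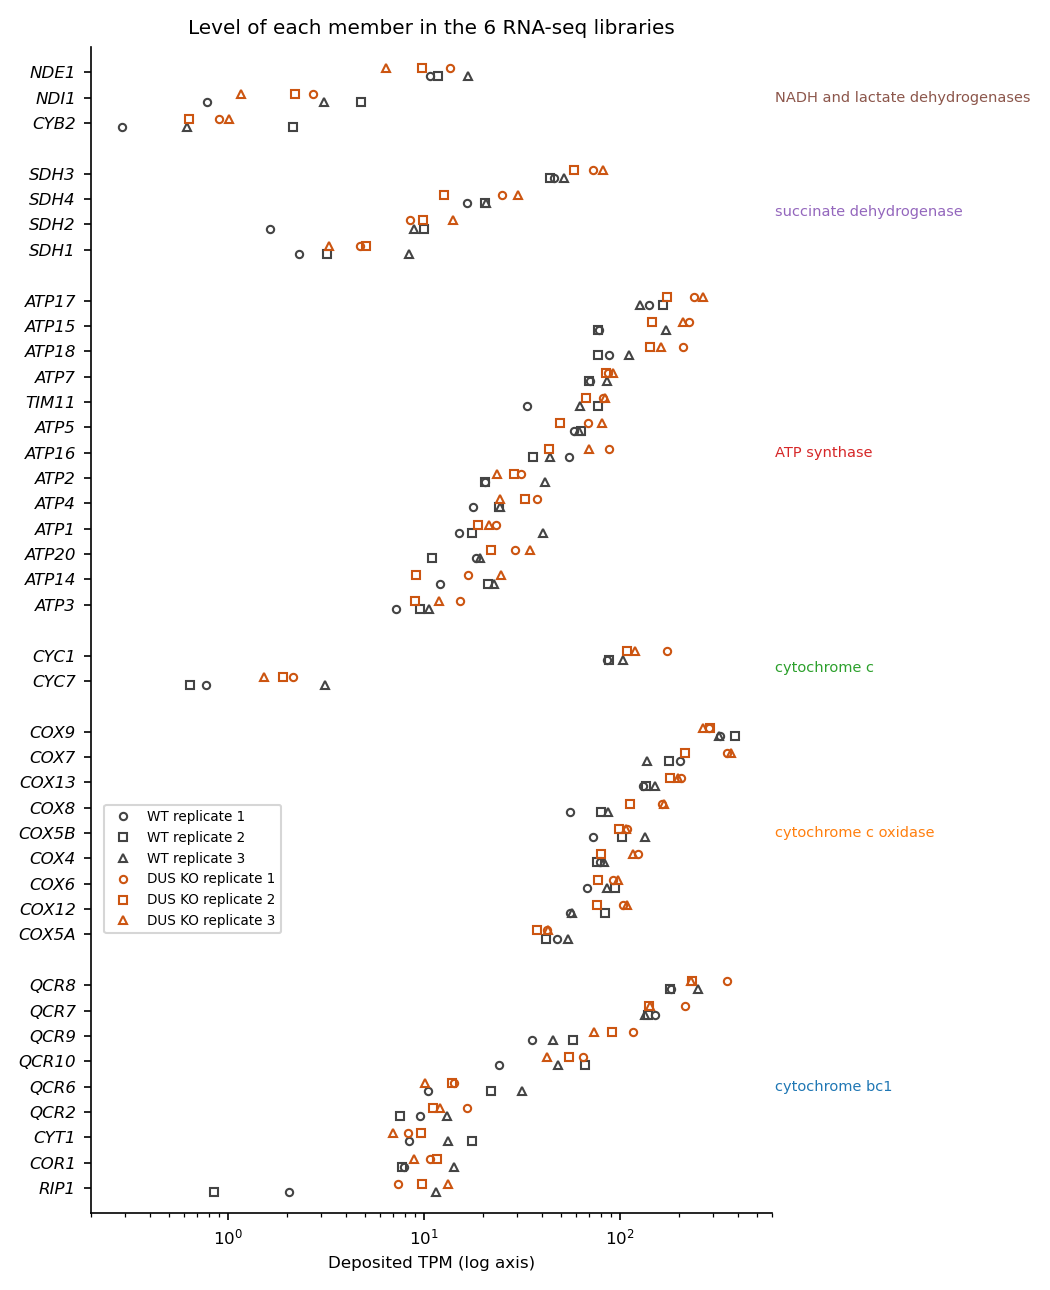
Deposited TPM (log axis) of each of the 40 genes in the 3 WT libraries (grey) and the 3 DUS KO libraries (orange), grouped by complex and ordered within it by mean TPM; each symbol is 1 library. COX9 at a mean of 312 TPM and CYB2 at 0.935 TPM mark the ends of the range, and RIP1, SDH2, NDI1, CYB2 and CYC7 show the widest spread between WT libraries.

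The libraries of one strain differed most for genes of low count. RIP1 had 22, 11 and 115 estimated counts in the WT libraries against 79, 64 and 18 in DUS KO. In TPM the highest WT library was 13.5 times the lowest, and the 95% exact Poisson intervals of the counts, which cover counting error only, were 13.8 to 33.3, 5.49 to 19.7 and 94.9 to 138 in WT. The spread of RIP1 in WT was thus larger than counting error, and 2 of the 3 DUS KO libraries lay within the WT range in TPM. The same ratio of highest to lowest WT library was 7.44 for CYB2, 6.14 for NDI1, 6.12 for SDH2, the iron-sulfur subunit, and 3.65 for SDH1. Within WT, replicate 3 held the highest TPM for 25 of the 40 genes and replicate 1 the lowest for 23. Within DUS KO, replicate 1 was highest for 20 and replicate 2 lowest for 25.

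No gene of the respiratory chain or ATP synthase changed between the strains past the threshold. In the quasi-likelihood test of edgeR, with p-values adjusted by Benjamini-Hochberg over 5884 features, 0 of the 39 genes tested had an adjusted p under 0.05, and the lowest was 0.402. The background was 5 calls, 0.0850% of all features, of which 3 were DUS1, DUS2 and DUS4. With no adjustment, 3 genes had a p under 0.05 and were higher in DUS KO (QCR9, COX8 and ATP18) where the background in that direction was 3.33%, and 5 were lower (QCR6, CYT1, NDE1, COX9 and COX5A) where it was 4.93%. This split depended on the scaling, and so did the background. It was 6 higher and 2 lower on total counts, where 442 and 105 of all 5884 features were. In limma on log2 TPM with 1 or 0.1 added it was 11 higher and 0 lower. Of all features, 700 were then higher and 61 lower with 1 added, and 658 and 56 with 0.1 added. After adjustment limma called 0 of the 39, and DESeq2 called 0 but left 5 of them without an adjusted p. The cytochrome c isoform gene CYC7 did not pass the filter.

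The log2 fold changes, DUS KO over WT, were balanced: 20 positive and 19 negative, with a median of 0.09 beside -0.02 for all features. Of all 5884 features, 2850 were positive and 3034 negative. The values of the 39 genes ran from -0.998 for QCR6 to 0.82 for RIP1, and their median standard error was 0.26 against 0.40 over all features. By complex the median was -0.07 for the bc1 complex (4 positive, 5 negative), 0.10 for cytochrome c oxidase (5 and 4), 0.09 for the ATP synthase (8 and 5), 0.07 for succinate dehydrogenase (2 and 2) and -0.67 for the 3 NADH and lactate dehydrogenase genes, all negative. These medians moved with single libraries. That of the dehydrogenases was -0.07 without WT replicate 2, with 1 of the 3 positive, and -1.12 without WT replicate 1. Without WT replicate 1 the ATP synthase stood at -0.06 and succinate dehydrogenase at -0.20, and without WT replicate 3 succinate dehydrogenase stood at 0.29 and the bc1 complex at 0.07. Without DUS KO replicate 3 succinate dehydrogenase was at -0.05 and the bc1 complex at 0.03. On log2(TPM + 1) the medians were 0.31, 0.40, 0.49, 0.36 and -0.24 in the order given above. Summed over the 39 genes, CPM, the counts scaled to a common library size with edgeR's TMM factors, was 2846, 3434 and 3485 in WT against 3345, 2983 and 3365 in DUS KO. The means of 3255 ± 355 and 3231 ± 215 CPM (SD, n = 3) differed by less than the spread between libraries, and the groups overlapped.

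The sum of TPM over the 40 genes gave another picture, with 2259, 2542 and 2720 in WT against 3752, 2783 and 3389 in DUS KO, all DUS KO libraries above all WT libraries. The median TPM of all 6612 features moved in the same way, from 2.98 to 3.67 in WT to 4.06 to 4.67 in DUS KO. Of the genes tested, 10 had every DUS KO library above every WT library in TPM, against 18.6% of all features, and 1, COX9, had every one below, against 2.01%. In CPM the same counts were 5 above (COX8, ATP18, ATP20, SDH3 and COX13) against 7.83%, and 4 below (CYT1, NDE1, COX9 and COX5A) against 7.68%. Those 9 are described next within their complexes, on the CPM scale.

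**Figure D2:**
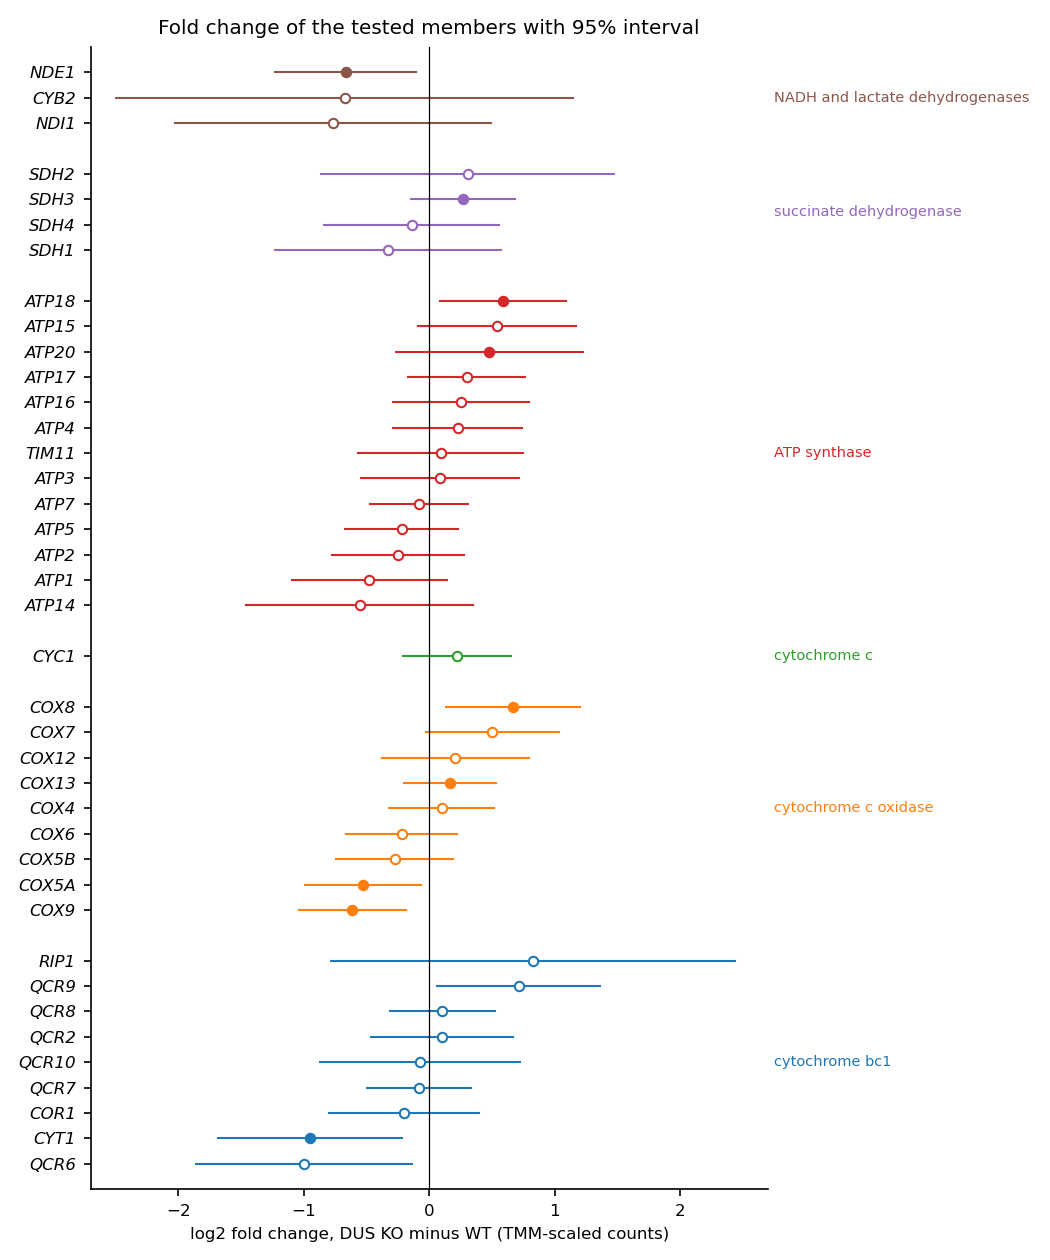
log2 fold change of the 39 genes tested, DUS KO over WT, with 95% intervals from the edgeR fit (horizontal lines), grouped by complex; filled points mark the 9 genes whose DUS KO and WT libraries do not overlap in CPM. Points lie on both sides of 0 in each group but the 3 NADH and lactate dehydrogenase genes, all below, and the single cytochrome c gene tested, and the widest intervals belong to CYB2 and RIP1.

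In the bc1 complex the gene with separate groups was CYT1 (YOR065W, chrXV:447439-448368, plus strand), which encodes cytochrome c1, the subunit that hands electrons to cytochrome c. Its CPM was 30.5, 68.2 and 44.2 in WT against 22.1, 30.0 and 20.8 in DUS KO. The DUS KO libraries were all below the WT libraries and DUS KO replicate 2 lay just under WT replicate 1. The log2 fold change was -0.95 (SE 0.34, edgeR quasi-likelihood test, adjusted p = 0.480), or -0.60 without WT replicate 2. In TPM the groups overlapped, at 8.43, 17.7 and 13.3 in WT against 8.32, 9.67 and 7.01 in DUS KO.

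Of the other 8 genes of the complex, QCR6 and QCR9 had an unadjusted p under 0.05 and were picked out after their values were seen. QCR6, the acidic hinge subunit, had 16.7, 37.5 and 46.7 CPM in WT against 16.8, 19.0 and 13.4 CPM in DUS KO, so that WT replicate 1 fell within the DUS KO range. Its log2 fold change was -0.998 (SE 0.40, edgeR adjusted p = 0.534). QCR9, which encodes a small subunit next to the Rieske protein, had 21.1, 36.1 and 24.7 CPM in WT against 50.3, 46.1 and 35.7 CPM in DUS KO, and only WT replicate 2 and DUS KO replicate 3 overlapped. Its log2 fold change was 0.71 (SE 0.30, edgeR adjusted p = 0.562). The core subunit genes COR1 and QCR2 had log2 fold changes of -0.20 and 0.10.

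QCR9 and QCR10 are among the 3 genes of the list with an intron in the RefSeq annotation, the other being COX5B. The introns are of 213 nt in QCR9, 63 nt in QCR10 and 88 nt in COX5B, where the first coding exon is 1 nt long. The features counted by the authors have the summed length of the coding exons, short of that 1 nt for COX5B, so splicing was not measured.

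Cytochrome c oxidase had 2 genes above and 2 below. COX8 (YLR395C, chrXII:909729-909965, minus strand), which encodes subunit VIII, a single-helix membrane subunit, had 41.0, 63.3 and 59.2 CPM in WT against 88.9, 71.5 and 102 CPM in DUS KO. The groups did not overlap, and DUS KO replicate 2 was the nearest to WT. The log2 fold change was 0.67 (SE 0.25, edgeR adjusted p = 0.489). COX13 (YGL191W, chrVII:144808-145197, plus strand), which encodes subunit VIa, had 182, 200 and 191 CPM in WT against 207, 212 and 223 CPM in DUS KO, a narrow separation with a log2 fold change of 0.16 (SE 0.17, edgeR adjusted p = 0.861). COX8 and COX13 are both on the study's list of mRNAs with a D site, and neither differed between the strains past the threshold.

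COX9 had the lowest adjusted p of the 39 genes. It had 164, 207 and 148 CPM in WT against 105, 124 and 110 CPM in DUS KO, where every library was below every WT library, as was also so in TPM (326, 386 and 321 against 285, 288 and 267). The log2 fold change was -0.61 (SE 0.20, edgeR adjusted p = 0.402), and over the 15 alternative fits it ran from -0.72 to -0.29 with adjusted p from 0.150 to 0.975. COX5A had 80.2, 74.6 and 83.4 CPM in WT against 52.5, 54.4 and 59.4 CPM in DUS KO with no overlap and a log2 fold change of -0.53 (SE 0.21, edgeR adjusted p = 0.538). In TPM its groups overlapped, at 48.0, 41.9 and 54.4 in WT against 42.8, 38.0 and 43.3 in DUS KO.

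In the ATP synthase the genes with separate groups were both small membrane subunits. ATP18 (YML081C-A), subunit i/j, had 44.2, 41.5 and 51.6 CPM in WT against 77.4, 61.2 and 66.8 CPM in DUS KO. The groups were clearly apart, and the log2 fold change was 0.59 (SE 0.23, edgeR adjusted p = 0.534). ATP20 (YPR020W, chrXVI:599870-600217, plus strand), subunit g, which with subunit e (TIM11) holds ATP synthase dimers together, had 22.2, 14.1 and 21.3 CPM in WT against 25.6, 22.5 and 34.2 CPM in DUS KO. WT replicate 1 and DUS KO replicate 2 nearly met, and the log2 fold change was 0.48 (SE 0.34, edgeR adjusted p = 0.775), or 0.28 without WT replicate 2. TIM11 itself overlapped, with a log2 fold change of 0.09.

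The catalytic head genes ATP1 and ATP2 had log2 fold changes of -0.48 and -0.25, and here 1 library set the sign. ATP1 had 98.7, 124 and 243 CPM in WT against 113, 107 and 116 CPM in DUS KO, and ATP2 had 126, 135 and 233 CPM in WT against 142, 152 and 119 CPM in DUS KO. WT replicate 3 was well above every other library for both genes. ATP1 was also the only gene of the list whose estimated counts were not whole (430.9 to 1084 in WT), so some of its reads were divided with another feature. ATP18 and COX8 are the only genes of the list within 25 kb of a DUS gene: ATP18 lies 4.64 kb from DUS1 and COX8 12.5 kb from DUS3. Both had their DUS KO libraries above WT. Among the 73 other features tested within that distance of a DUS gene, 6 lay above, 5 below, and the median log2 fold change was -0.01. The part of the nearby deletions in the values of ATP18 and COX8 was not tested.

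COX9 and ATP18 are the shortest genes of the list, each with a coding sequence of 180 nt, and they moved to opposite sides of WT. Their coding sequences from the R64 genome are shown with the start and stop codons in capitals, since length alone does not separate them.
COX9 (YDL067C, chrIV:334217-334396, minus strand): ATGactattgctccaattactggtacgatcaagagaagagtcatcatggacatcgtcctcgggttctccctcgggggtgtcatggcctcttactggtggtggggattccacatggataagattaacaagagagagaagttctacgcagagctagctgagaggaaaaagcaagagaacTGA
ATP18 (chrXIII:103983-104162, minus strand): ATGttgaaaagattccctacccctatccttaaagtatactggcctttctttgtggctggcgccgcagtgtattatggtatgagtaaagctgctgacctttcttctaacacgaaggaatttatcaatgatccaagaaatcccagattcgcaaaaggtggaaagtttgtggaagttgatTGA
The COX9 sequence has 41 uridines in the mRNA and a GC content of 47.8%, and that of ATP18 has 55 uridines and 41.1%. The median GC content of the 40 genes was 41.1% and that of all features 39.8%.

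Among the dehydrogenases SDH3 (YKL141W, chrXI:179667-180263, plus strand) had 104, 105 and 107 CPM in WT against 120, 112 and 152 CPM in DUS KO. The WT libraries were the closest of any of the 9 genes, and the log2 fold change was 0.27 (SE 0.19, edgeR adjusted p = 0.775). Without DUS KO replicate 3, the highest and shallowest library, it was 0.15. NDE1 (YMR145C, chrXIII:554793-556475, minus strand), which oxidises cytosolic NADH, had 72.4, 85.5 and 104 CPM in WT against 67.3, 56.4 and 35.7 CPM in DUS KO. DUS KO replicate 3, the shallowest library, was the lowest, and the log2 fold change was -0.67 (SE 0.26, edgeR adjusted p = 0.528). In TPM the NDE1 groups overlapped, at 10.7, 11.9 and 16.8 in WT against 13.6, 9.76 and 6.45 in DUS KO.

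A pair of subunits have isoform genes that respond to oxygen and heme: COX5A and CYC1 are the aerobic and COX5B and CYC7 the hypoxic ones. Their ratio within a library does not depend on scaling between libraries. COX5B (YIL111W) had 72.8, 103 and 135 TPM in WT against 110, 99.3 and 108 TPM in DUS KO, and was above COX5A in all 6 libraries. The COX5A to COX5B ratio was 0.659, 0.406 and 0.403 in WT against 0.391, 0.383 and 0.401 in DUS KO. The groups did not overlap, but WT replicates 2 and 3 lay next to the DUS KO libraries and replicate 1 stood apart. The mean log2 ratio was -1.07 ± 0.41 in WT and -1.35 ± 0.03 in DUS KO (SD, n = 3), a difference of -0.28 with a two-sided exact permutation p of 0.1, the smallest that 3 libraries against 3 can give (adjusted over the 2 ratios, 0.2). Without WT replicate 1 the difference was -0.05. The log2 fold change of COX5B was -0.28 (SE 0.22, edgeR adjusted p = 0.791), with -0.47 without WT replicate 1 and -0.12 without WT replicate 3.

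CYC1 (YJR048W), the main cytochrome c gene, had 86.4, 88.1 and 104 TPM in WT against 175, 109 and 119 TPM in DUS KO, with all DUS KO libraries above. In CPM, at 97.1, 105 and 107 in WT against 144, 105 and 110 in DUS KO, the groups overlapped, and the log2 fold change was 0.22 (SE 0.20, edgeR adjusted p = 0.828). Without DUS KO replicate 1, the highest library, it was 0.05. CYC7 (YEL039C) had only 4, 4 and 15 counts in WT against 11, 6 and 1 in DUS KO. The CYC1 to CYC7 ratio was 111, 137 and 33.2 in WT against 81.5, 56.6 and 77.3 in DUS KO, and WT held both the highest and the lowest value. The difference of the mean log2 ratio was -0.17 (two-sided exact permutation p = 0.9, adjusted over the 2 ratios 0.9), and its sign turned without WT replicate 1 or replicate 2. Fitted without the filter, CYC7 had a log2 fold change of 0.08 with an SE of 1.38, so its level could be compared only coarsely.

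The coding sequences of the isoform genes were compared to see how far reads could be shared. CYC1 and CYC7 coding sequences were identical at 78.1% of 329 aligned bases. The longest run shared by them is shown because only a read lying wholly within such a run would fit either gene.
CYC1 and CYC7 shared run of 35 nt: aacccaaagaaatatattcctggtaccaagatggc
For COX5A and COX5B the identity was 69.3% of 446 aligned bases and the longest shared run was 12 nt. Both runs are shorter than the RNA fragments that the study selected by size. The estimated counts of all 4 genes were whole in every library, within 0.001, so no division of reads was seen.

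**Figure D3:**
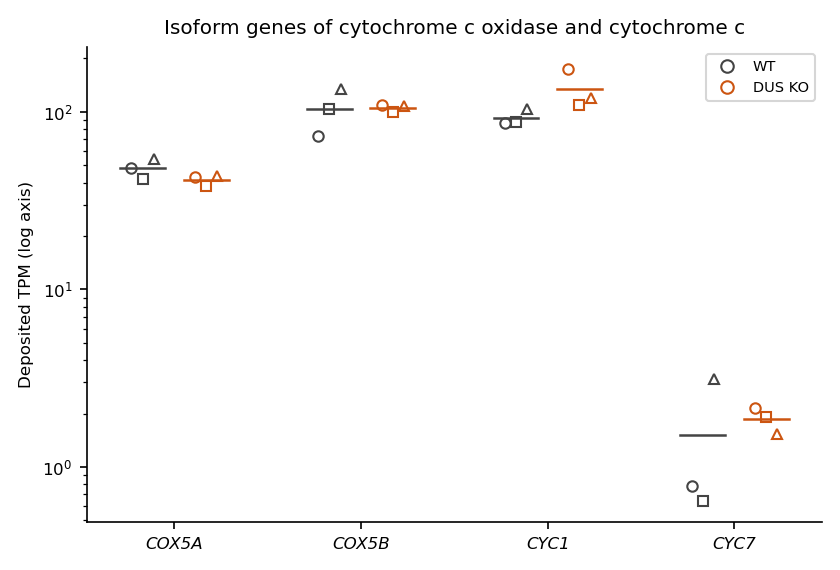
Deposited TPM (log axis) of the isoform genes COX5A and COX5B of cytochrome c oxidase and CYC1 and CYC7 of cytochrome c; each symbol is 1 library (circle, square and triangle for replicates 1, 2 and 3) and the horizontal bar is the mean of 3 libraries. COX5B exceeded COX5A in all 6 libraries, and CYC7 stayed between 0.645 and 3.13 TPM.

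Across the 39 genes the log2 fold change tended to go down with feature length, though not steadily, a relation looked at after the values were seen. Spearman's rho was -0.48 over the 39 genes and -0.003 over all 5884 features, given as a description since genes are not independent replicates and all share the same 6 libraries. All 7 genes of 1200 nt or more (ATP1, ATP2, COR1, SDH1, NDI1, NDE1 and CYB2) had a negative log2 fold change with a median of -0.48, where the 2846 features of that length had -0.002. Of the 7 genes under 250 nt, 5 were positive with a median of 0.54, where the 199 features of that length had 0.16. Between these limits the medians went down and up again. They were 0.16 for 9 genes of 250 to 400 nt and -0.14 for 11 of 400 to 700 nt. The 5 genes of 700 to 1200 nt had a median of 0.10, with 4 positive. All features of those lengths had medians of 0.11, -0.08 and -0.04. Removing a trend with length from each library left rho at -0.44 and the 7 long genes all negative. With the replicate number as a block they were also all negative, but their median was -0.18, and -0.20 with the length trend removed as well.

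The relation rested in part on WT replicate 3. Without that library rho was -0.27, only 3 of the 7 long genes were negative, and their median was 0.00. Without WT replicate 2, 6 of the 7 were negative. On log2 TPM with 1 or 0.1 added, 4 or 3 of the 7 long genes were negative. In addition to ATP1 and ATP2, WT replicate 3 held the highest CPM of COR1 (43.5, 45.0 and 71.6 in WT against 42.9, 54.7 and 40.1 in DUS KO). It also held that of SDH1 (17.9, 26.6 and 59.9 against 26.8, 33.5 and 20.8) and of NDE1 (104). NDI1 and CYB2 were highest in WT replicate 2, at 31.5 and 16.3 CPM. HAP4, which encodes the regulated activation subunit of Hap2/3/4/5, was highest in WT replicate 3, with 16.7, 10.7 and 37.5 CPM in WT against 14.6, 20.9 and 5.94 CPM in DUS KO. The genes of the other subunits, HAP2, HAP3 and HAP5, were not highest in that library. Of the other regulator genes tested, PUF3 and IXR1 were also highest in it, at 19.7 and 25.8 CPM, and HAP1 and MOT3 were not. HAP4 was picked out after these values were seen. The part of WT replicate 3 in the relation with length beyond these values was not tested.

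**Figure D4:**
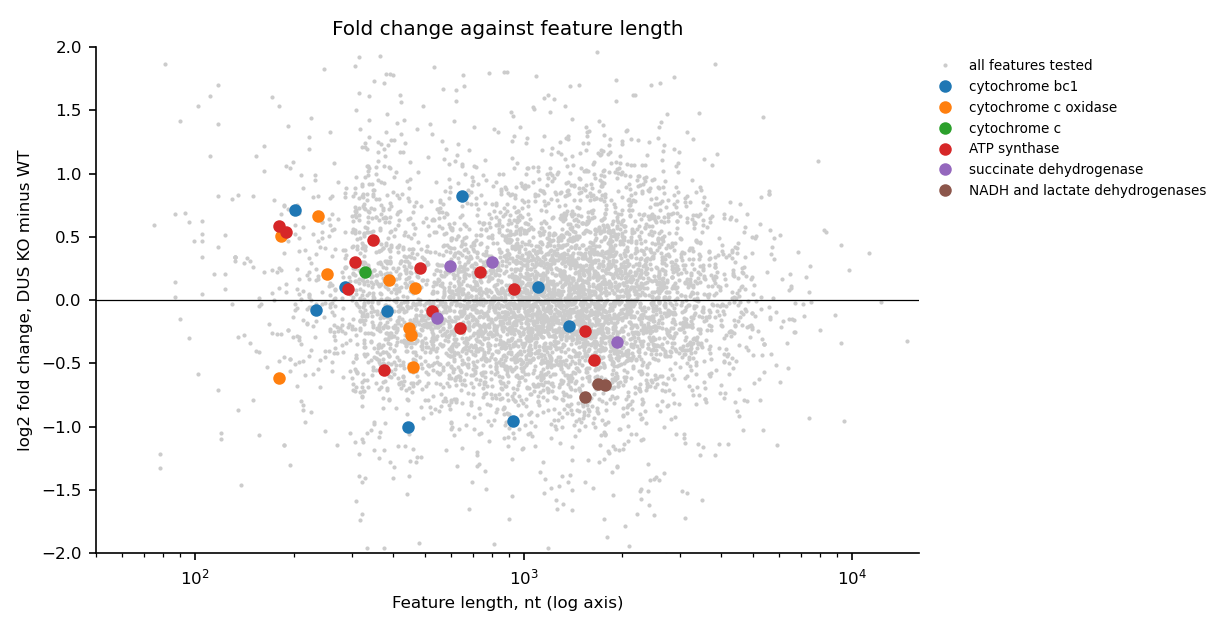
log2 fold change, DUS KO over WT, against feature length in nt (log axis) for all features tested (small grey points, 46 outside the axes) and for the 39 genes coloured by complex. The 7 genes of 1200 nt or more all lie below 0, and COX9 and ATP18 lie at the same length on opposite sides. The grey points have a rho of -0.003, although those under 250 nt are also raised, with a median of 0.16.

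Split by the ACCAATNA letters in the promoter, the median log2 fold change was -0.08 over the 19 genes with a match (9 positive) and 0.10 over the 20 tested genes without one (11 positive). Of the regulators themselves, 8 of 9 passed the filter and 0 passed the test, 3 being positive and 5 negative. HAP3, a DNA-binding subunit, had a log2 fold change of 0.13 and HAP4 one of -0.54. IXR1, a repressor of COX5B, had 10.5, 12.5 and 25.8 CPM in WT against 4.88, 3.86 and 4.46 CPM in DUS KO, all below, with a log2 fold change of -1.87 (SE 0.53, edgeR adjusted p = 0.311).

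The proteins made from the 40 genes assemble with subunits encoded in mitochondrial DNA. Budding yeast mitochondrial mRNAs lack the poly(A) tail on which these libraries were selected. Of 8 such genes (7 subunit genes and VAR1, a mitochondrial ribosomal protein gene), ATP8 had 0 counts in all libraries and 7 were tested. All 7 had a positive log2 fold change, with a median of 0.65 and a range of 0.50 to 2.47, and 0 passed the test (lowest edgeR adjusted p, 0.466). Both ends of the range rest on few counts. COX3, the highest, had 12, 2 and 11 in WT against 64, 46 and 3 in DUS KO. ATP6, the lowest, had 0 in WT replicate 2 and in DUS KO replicate 3. Left out in turn, WT replicate 2 and DUS KO replicate 2 each turned 1 of the 7 negative. COB, the cytochrome b of the bc1 complex, had 43.5, 47.0 and 23.6 CPM in WT against 93.9, 52.5 and 55.0 CPM in DUS KO. Its estimated counts were not whole, so some of its reads were divided with another feature. COX2 had 36.9, 43.0 and 21.8 CPM in WT against 55.5, 44.1 and 56.4 CPM in DUS KO, so that both genes were above in DUS KO, COX2 by a narrow margin.

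Assembly factors, carriers and paralogs of the complexes gave 0 calls as well. Of 43 assembly factors tested, 17 were positive and 26 negative with a median of -0.17, which was 0.17 on log2(TPM + 0.1) and 0.02 on total counts. By edgeR with no adjustment, 4 of the 43 had a p under 0.05 and were lower in DUS KO, and 0 were higher. Over all features the shares were 4.93% lower and 3.33% higher. The 4 were CYC3, the enzyme that attaches heme to cytochrome c, PET191 and COX17, factors of cytochrome c oxidase assembly, and ATP11, a chaperone of the ATP synthase beta subunit. CYC3 had 52.2, 64.9 and 55.2 CPM in WT against 31.6, 30.9 and 25.3 CPM in DUS KO, and a log2 fold change of -0.95 (SE 0.25, edgeR adjusted p = 0.277). Of 14 paralogs, other dehydrogenases, carriers and ATPase inhibitors tested, 6 were positive and 8 negative. Their median was -0.13, which was 0.22 on log2(TPM + 1). By edgeR with no adjustment, 1 of the 14, ATP19, had a p under 0.05 and was higher in DUS KO, and 2, GUT2 and POR1, were lower. The ADP/ATP carrier PET9 had a log2 fold change of -0.59 and the outer membrane porin POR1 one of -0.51, and both were highest in WT replicate 3, at 306 and 345 CPM. On the positive side SHH3, YJL045W and ATP19 had log2 fold changes of 0.81, 0.74 and 0.69.

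Genes that mark the state of glucose repression did not differ past the test either. Of 12 glucose-repressed or late-growth genes tested, 5 had a positive and 7 a negative log2 fold change with a median of -0.13, and 0 had an unadjusted p under 0.05 by edgeR. The transporter genes HXT1 and HXT3, which glucose induces, had log2 fold changes of -0.19 and -0.53. HXT3 had 689, 628 and 814 CPM in WT against 529, 415 and 535 CPM in DUS KO, all below. Its edgeR p was 0.013 with no adjustment and 0.466 adjusted.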

How the data were processed

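RNA was extracted with hot phenol and poly(A)-selected. RNA-seq libraries were prepared as the D-seq libraries but without borohydride and from full-length cDNA. The 6 D-seq libraries were not used here. The authors deposited, per library, each feature's length, effective length, estimated count (not normalized) and TPM (scaled by effective length and library total). For the sequencing as a whole the study names bbduk for trimming, dedupe for PCR duplicates and bbmap for mapping to sacCer3. The quantification program was not given in the sources used here. The counts were rounded, filtered with filterByExpr (5884 features kept), scaled with TMM and tested with edgeR 4.0.16 (quasi-likelihood, robust; R 4.3.3), with Benjamini-Hochberg adjustment at 0.05. The biological coefficient of variation was 37.5%. A standard error is the log2 fold change over the square root of F. Isoform ratios were tested by exact permutation over libraries (scipy 1.17.1). The scripts were tested on simulated data.

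The members and lists were chosen with earlier results of these data known. Fold changes are named for genes called, for up to 5 genes each way whose groups did not overlap in CPM, for the isoform pairs and for COX8 and COX13; levels for the highest and lowest gene of each complex. Other named genes, the length limits and the DUS neighbourhood were chosen after values were seen. Alternatives were median-ratio or total-count scaling, no filter, DESeq2 1.42.0, limma 3.58.1 on log2 TPM plus 1 or 0.1, a replicate block, a length trend removed by loess (span 0.75), both together, and each library left out, 15 in all. Genes were matched to the RefSeq annotation of R64 by systematic name, 40 of 40.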

Additional observations from a re-analysis of the deposited data

How the results depend on the processing

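The count of genes called among the 39 tested was 0 under all 15 alternatives. The fit without a filter tested all 40, and DESeq2 gave no adjusted p for 5. The count over all features, 5 with all libraries, was 3 on total counts, 53 with DESeq2, 10 on log2(TPM + 1) and 1 (without DUS KO replicate 1) to 12 (without WT replicate 1) with a library left out. The median log2 fold change of the 39 genes, 0.09, was 0.27 on total counts, 0.36 on log2(TPM + 1) and 0.39 on log2(TPM + 0.1), where the median of all features moved from -0.02 to 0.16, 0.22 and 0.29. With a library left out it ran from -0.12 (without WT replicate 1) to 0.15 (without DUS KO replicate 2) and was -0.05 without DUS KO replicate 1. On log2(TPM + 0.1), 31 of the 39 genes were positive, as were 4269 of all 5884 features. On total counts the unadjusted calls were 442 higher and 105 lower, against 196 and 290 with TMM. COX5B turned sign on both TPM scales (0.070 with 1 added and 0.071 with 0.1 added), the 12 other genes whose fold changes were followed through the alternatives kept theirs, and the cause was not tested. The CYC1 to CYC7 difference, -0.17, was 0.19 with 1 TPM added to both genes, 0.07 without WT replicate 1 and 0.23 without WT replicate 2, and ran from -0.79 to 0.23 with a library left out.

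The replicate numbers did not pair the libraries: the correlation of deviations from the group means was 0.03, -0.04 and -0.07 for replicates 1, 2 and 3 over 5884 features. With the replicate number as a block, 3 features were called, none of them among the 40 genes, and the median of the 39 genes was 0.09. The block together with the length correction gave 5 calls and a median of 0.05.

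The rarest mRNAs were the least precisely measured. CYC7 and CYB2 had few counts, DUS KO replicate 3 held a median of 45 counts per gene, and the 95% interval of a fold change ran from -2.49 to 1.15 for CYB2 on the log2 scale. The WT libraries of CYB2 and RIP1 differed by more than counting error, so depth was not the sole limit. A change that misses the threshold here is not shown to be absent.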
